A study of Mus musculus with 8 samples.

Results

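The enteric neuron and glia genes are 31 of the 52636 genes in a count table of mouse colon. They were chosen by symbol, as familiar markers of the gut's own nervous system, and matched to the table by Ensembl identifier. Earlier results of these data were known when the genes were chosen. All 31 were found and all 31 passed the filter on low counts. They comprise 17 neuronal genes (identity, structure, synapse and growth factor receptors), 8 transmitter genes and 6 glial genes. The colons came from germ-free wild-type C57BL/6 female mice, 6 weeks old, kept in gnotobiotic isolators. Controls gave 3 libraries. Mice gavaged with 100000000 colony-forming units of Candida albicans SC5314 gave 3 libraries and mice gavaged with as many of Candida tropicalis MYA-3404 gave 2, with colon taken at day 30. The labels do not say which stretch or layers of the colon were taken, or whether each library is a separate mouse. P-values therefore set differences between groups only against the spread among these libraries, and part of that spread may be technical.

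The enteric nervous system lies within the gut wall as a plexus between the muscle layers and another in the submucosa, and it drives peristalsis, secretion and local blood flow without needing input from the brain. Its neurons and glia descend from neural crest cells, which enter the gut under signals from GDNF through the receptor RET and from endothelin through EDNRB. Acetylcholine and tachykinins excite the muscle, nitric oxide and VIP relax it, and glia that carry S100B and GFAP surround the nerve cell bodies and fibres. In bulk tissue, fewer cells of a type and less RNA per cell cannot be told apart.

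Promoter sequences from RefSeq (GRCm38.p6) were matched for 20 of the 31 genes, in 24 windows. The 250 bases before the start site are printed for 3 genes on which the results turn. Foxd3 and Phox2a are among the 3 members with the smallest p between the Candida species, and Vip had the smallest fold change with C. albicans. Capitals mark TGACGT, the core of a cAMP response element, on either strand in Foxd3 and Vip, and GGGCGG, a GC box, on either strand in Phox2a.
Foxd3, chr4:99656049-99656298, plus strand: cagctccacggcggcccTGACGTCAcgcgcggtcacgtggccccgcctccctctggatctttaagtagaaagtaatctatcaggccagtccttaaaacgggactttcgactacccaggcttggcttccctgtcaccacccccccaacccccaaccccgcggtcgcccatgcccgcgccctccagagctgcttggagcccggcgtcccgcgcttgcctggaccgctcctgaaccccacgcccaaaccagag
Vip, chr10:5638968-5639217, plus strand: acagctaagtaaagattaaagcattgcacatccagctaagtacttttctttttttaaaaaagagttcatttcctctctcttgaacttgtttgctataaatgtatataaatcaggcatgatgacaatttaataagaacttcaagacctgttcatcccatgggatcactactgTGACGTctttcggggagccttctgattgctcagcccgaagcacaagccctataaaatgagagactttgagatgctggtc
Phox2a, chr7:101818063-101818312, plus strand: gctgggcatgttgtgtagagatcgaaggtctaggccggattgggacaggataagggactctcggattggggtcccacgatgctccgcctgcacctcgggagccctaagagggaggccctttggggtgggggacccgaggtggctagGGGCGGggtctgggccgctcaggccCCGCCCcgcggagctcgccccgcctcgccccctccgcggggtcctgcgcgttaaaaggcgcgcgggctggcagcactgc
In Foxd3 the motif was matched on both strands, and the matches overlap. The core TGACGT was found in the windows of 5 of the 20 genes (Cartpt, Chat, Elavl4, Foxd3 and Vip) and in 6.47% of all 32851 windows of that length. The GC box was found for 11 of the 20 genes and in 32.7% of all windows. ACAAAG, a core bound by SOX factors, was found for 1 of the 20 (Syt1) and in 16.5% of all windows. These are matches of letters on either strand and show no binding.

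Library totals ranged from 16195376 to 19761098 counts, and 16107 genes could be tested. Values are CPM, the count as a share of the TMM-adjusted library size on the usual CPM scale. Sums over genes, and the shares and ratios given below, use CPM without a correction for length. Levels of single genes are ranked only as CPM per kilobase of exon. On that scale the deubiquitinase gene Uchl1 was the most abundant neuronal gene at 16.1 CPM per kilobase over the 8 libraries, followed by Prph (13.6), Hand2 (12.3) and Tubb3 (10.4), while Elavl3 (0.498) and Elavl4 (0.541), which encode RNA-binding Hu proteins, were lowest. Among transmitter genes, Calb2, a calcium-binding protein of neuron subtypes, led at 8.84 CPM per kilobase before the neuropeptide gene Gal at 7.65, and Chat, the enzyme that makes acetylcholine, was lowest at 0.261. Among glial genes Erbb3, a neuregulin receptor that epithelium also expresses, stood at 44.9 CPM per kilobase and the glial regulator Sox10 at 5.39. Erbb3 alone held 71.3% to 94.4% of the summed CPM of the 6 glial genes, so sums over glial genes are given without it. The defining markers of neurons (Elavl4, Prph, Uchl1) and of glia (Sox10, S100b, Gfap) had counts in all 8 libraries.

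Across the 8 libraries most neuron and glia genes were high or low together, and libraries of the same group stood apart from each other. C. albicans 2 held the highest level of 28 of the 31 genes and C. tropicalis 1 the lowest of 24. The exceptions at the top were Erbb3 and Chat, highest in control 1, and Gfra3, highest in C. albicans 1. C. albicans 2 lay above all 3 controls for 29 genes, C. albicans 3 for 19 and C. albicans 1 for 5, and C. albicans 1 was within the control range for 22. C. tropicalis 1 lay below all 3 controls for 29 genes and C. tropicalis 2 for 23. The higher values with C. albicans thus came mainly from 2 of its 3 libraries, and the lower values with C. tropicalis from both of its libraries. From the lowest to the highest library a member spanned 4.82-fold in the median, with 6.32-fold for transmitter, 4.73-fold for neuronal and 4.37-fold for glial genes.

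**Figure D1:**
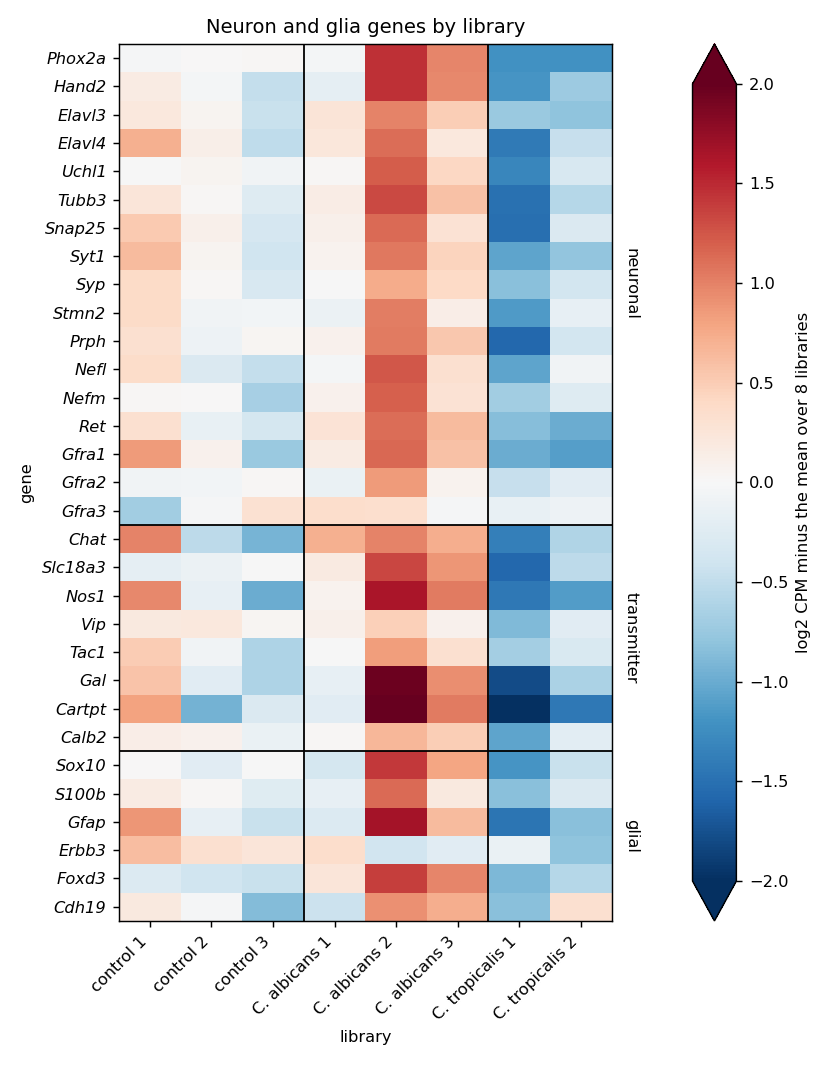
Level of the 31 genes (rows, by class) in the 8 libraries (columns, by group), as log2 CPM minus the gene's mean over the 8 libraries. C. albicans 2 is highest for 28 genes and C. tropicalis 1 lowest for 24, while Erbb3 does not follow the other glial genes.

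With C. albicans, 30 of the 31 genes had a positive log2 fold change against control, where 48.2% of all tested genes did. None passed the test (edgeR's quasi-likelihood test, Benjamini-Hochberg adjusted p under 0.05 over all genes), against 0.0435% of all tested genes. The members' median log2 fold change was 0.65, against -0.016 over all tested genes, with 0.52 for the neuronal, 0.81 for the transmitter and 0.68 for the glial genes. At an unadjusted p under 0.05 there were 8 members, all higher, against 9.13% of all tested genes on that side. For 4 members (Elavl3, Nefm, Slc18a3 and Foxd3) every C. albicans library lay above every control, against 9.82%. With DESeq2 1 member passed (Foxd3), against 2.75% of the genes it tested, and with limma-voom 0, against 0.0435%. Leaving out C. albicans 1 let 2 members pass (Foxd3 and Hand2), against 1.58%, and leaving out C. albicans 2 took the median to 0.24.

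Foxd3, a transcription factor of neural crest and its glial descendants (ENSMUSG00000067261, chromosome 4 from 99656299 to 99658622, plus strand), had the smallest p of the 31 genes with C. albicans. Its level was 4.74, 4.35 and 4.19 CPM in controls 1 to 3 and 6.75, 14.9 and 11.2 CPM in C. albicans 1 to 3. The groups did not overlap, and C. albicans 1, the lowest of its group, was still above every control. The log2 fold change was 1.30 ± 0.29 (SE, 2.47-fold, adjusted p = 0.151 with edgeR), and DESeq2 gave an adjusted p of 0.00345. In the 2 C. tropicalis libraries Foxd3 stood at 3.08 and 3.85 CPM, below every control.

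Ret encodes the receptor tyrosine kinase through which GDNF family ligands act on enteric neurons (ENSMUSG00000030110, chromosome 6 from 118151745 to 118197718, minus strand). Its controls were at 21.1, 15.2 and 13.2 CPM and the C. albicans libraries at 20.3, 36.6 and 26.2 CPM, so that C. albicans 1 lay within the control range (log2 0.75 ± 0.24, adjusted p = 0.248 with edgeR). The C. tropicalis libraries, at 9.37 and 8.499 CPM, were below every control (log2 -0.88 ± 0.28, adjusted p = 0.2502 with edgeR). RET works with co-receptors, of which GFRA1 binds GDNF, GFRA2 neurturin and GFRA3 artemin. Gfra1 was at 8.26 ± 4.34, 11.5 ± 3.94 and 3.47 ± 0.1800 CPM in control, C. albicans and C. tropicalis (mean ± SD, n = 3, 3 and 2, as in the values below), and its controls alone spanned 3.000-fold. Gfra2 varied less, at 10.7 ± 0.387, 13.8 ± 5.26 and 8.76 ± 0.997 CPM in the same order. Gfra3 had the narrowest range of the 31 genes, 2.07-fold from the lowest to the highest library, at 2.63 ± 0.869, 3.27 ± 0.454 and 2.56 ± 0.0663 CPM.

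Transcription factors of enteric neurons had the same order of group means. Phox2a, a homeodomain factor of autonomic neurons (ENSMUSG00000007946, chromosome 7 from 101818313 to 101822726, plus strand), was tightly grouped in controls at 3.37, 3.46 and 3.496 CPM. The C. albicans libraries were at 3.32, 9.45 and 6.77 CPM, so that C. albicans 1 was level with the controls, and both C. tropicalis libraries were lower, at 1.48 and 1.47 CPM. Exons of Phox2a overlap those of Inppl1 on the opposite strand (26023 counts in all, against 584 for Phox2a), and the library kit does not keep the strand, so reads in the shared stretch cannot be told apart. Hand2, a factor that enteric neurons need and that muscle of the gut wall also expresses, was at 22.9 ± 5.002, 45.5 ± 22.9 and 12.8 ± 2.87 CPM in control, C. albicans and C. tropicalis. It too shares exon sequence with an opposite-strand transcript, Hand2os1 (1261 counts against 4098).

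Genes of the neuronal cytoskeleton and of synaptic vesicles make up most of the other neuronal genes. Tubb3, the neuronal beta-tubulin (ENSMUSG00000062380, chromosome 8 from 123411424 to 123422015, plus strand), was at 20.2, 17.2 and 14.1 CPM in controls and 18.9, 42.3 and 25.5 CPM with C. albicans. With C. tropicalis it stood at 6.05 and 11.4 CPM, below every control (log2 -0.97 ± 0.38, adjusted p = 0.286 with edgeR). Uchl1 was nearly constant in controls at 23.7, 24.7 and 22.8 CPM, and stood at 24.3, 54.9 and 31.6 CPM with C. albicans and 9.65 and 19.2 CPM with C. tropicalis. Again C. albicans 1 lay inside the control range and the other libraries of that group above it. The intermediate filament genes Prph, at 26.1 ± 4.07, 37.4 ± 12.3 and 13.6 ± 7.65 CPM in control, C. albicans and C. tropicalis, Nefl, at 2.12 ± 0.693, 3.43 ± 1.65 and 1.62 ± 0.755 CPM, and Nefm, at 2.88 ± 0.722, 4.95 ± 2.19 and 2.36 ± 0.5099 CPM, kept that order of means. Nefl and Nefm lie on chromosome 14 with exons that overlap on opposite strands. For the SNARE and vesicle proteins Snap25, Syt1 and Syp, the growth cone protein Stmn2 and the Hu protein Elavl4, log2 fold changes with C. albicans were 0.44, 0.42, 0.35, 0.33 and 0.40, each with at least 1 C. albicans library inside the control range. Elavl3 was at 3.08 ± 0.692, 4.84 ± 1.31 and 1.85 ± 0.0504 CPM, with no overlap between any of the groups.

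**Figure D2:**
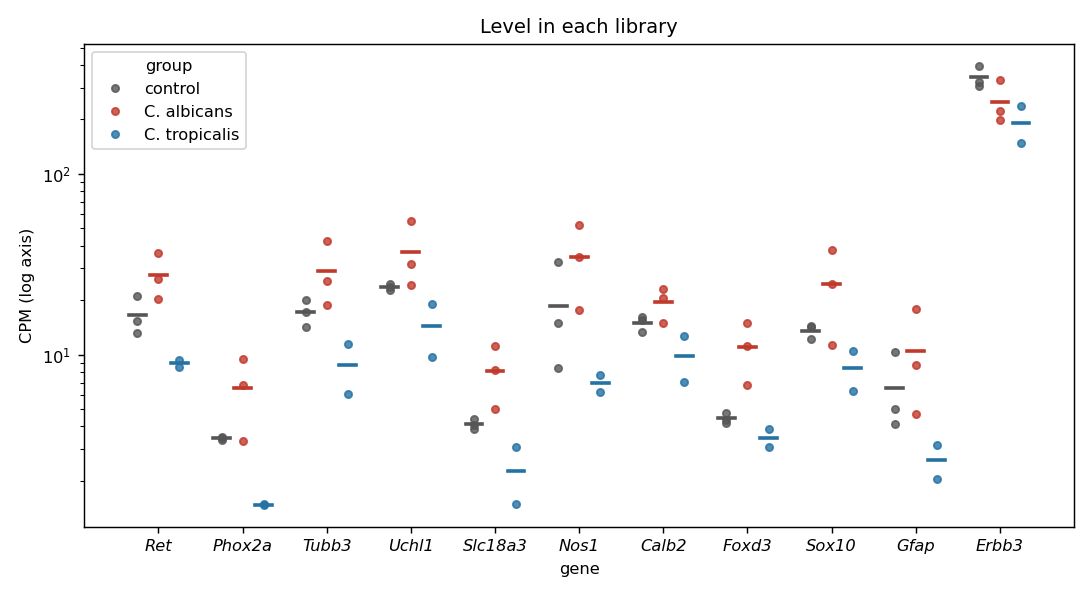
CPM on a log axis for 11 of the genes, with a point for each library and a bar for the group mean (control n = 3, C. albicans n = 3, C. tropicalis n = 2). For Foxd3 and Slc18a3 the groups do not overlap, and Erbb3 has a lower mean in both colonized groups than in control.

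Transmitter genes held the widest ranges and, in Vip, a narrow one. Slc18a3, the vesicular acetylcholine transporter (ENSMUSG00000100241, chromosome 14 from 32462438 to 32464850, minus strand), was at 3.88, 4.05 and 4.41 CPM in controls, 5.003, 11.1 and 8.17 CPM with C. albicans and 1.48 and 3.06 CPM with C. tropicalis. No group overlapped another (log2 0.98 ± 0.35, adjusted p = 0.264 for C. albicans and -0.85 ± 0.41, adjusted p = 0.351 for C. tropicalis against control, both with edgeR). Slc18a3 lies within the span of Chat on the same strand, without shared exons. Chat was low, at 1.103 ± 0.8303, 1.81 ± 0.203 and 0.5398 ± 0.198 CPM from 174 counts in all, and its highest control (2.06 CPM) was level with its highest C. albicans library (2.05 CPM).

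Nos1, the neuronal nitric oxide synthase of inhibitory motor neurons (ENSMUSG00000029361, chromosome 5 from 117781032 to 117958840, plus strand), differed 3.86-fold among the controls alone, at 32.6, 14.95 and 8.44 CPM. It stood at 17.7, 52.2 and 34.5 CPM with C. albicans and 6.22 and 7.71 CPM with C. tropicalis, so that only the C. tropicalis libraries lay outside the control range together. Vip, a relaxant and secretomotor peptide found in many of the same neurons (ENSMUSG00000019772, chromosome 10 from 5639218 to 5647617, plus strand), spanned 1.13-fold in controls (13.3, 13.5 and 11.9 CPM). With C. albicans it was 12.4, 16.22 and 12.4 CPM, a log2 fold change of 0.084 ± 0.21 (adjusted p = 0.854 with edgeR), and with C. tropicalis it was 6.28 and 9.97 CPM, below every control (-0.67 ± 0.24, adjusted p = 0.266 with edgeR). The ratio of Nos1 to Vip CPM was 2.45, 1.11 and 0.707 in controls, 1.43, 3.22 and 2.78 with C. albicans and 0.991 and 0.773 with C. tropicalis. These inhibitory genes therefore did not keep a fixed ratio even among controls.

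Cartpt, a neuropeptide precursor of some enteric neurons, had the largest range, 33.1-fold, from few counts (249 in all). It was at 1.599, 0.477 and 0.753 CPM in controls, 0.787, 7.56 and 1.89 CPM with C. albicans and 0.228 and 0.3400 CPM with C. tropicalis. A single library, C. albicans 2, held most of the difference, and C. albicans 1 was inside the control range. Gal, the galanin precursor, was next with 13.5-fold, at 6.74, 3.87 and 2.96 CPM in controls, 4.05, 17.7 and 8.66 CPM with C. albicans and 1.31 and 2.95 CPM with C. tropicalis. Calb2 (ENSMUSG00000003657, chromosome 8 from 110137502 to 110168210, minus strand) was at 16.1, 15.6 and 13.4 CPM in controls, 14.95, 23.1 and 20.5 CPM with C. albicans and 7.02 and 12.6 CPM with C. tropicalis. Both C. tropicalis libraries were below every control for Calb2, and C. albicans 1 was again among the controls. Tac1, the precursor of substance P, was at 10.9 ± 4.198, 14.5 ± 4.405 and 7.79 ± 1.41 CPM in control, C. albicans and C. tropicalis.

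All 5 glial genes other than Erbb3 were highest in C. albicans 2, and all but Erbb3 and Cdh19 were lowest in C. tropicalis 1. Sox10 (ENSMUSG00000033006, chromosome 15 from 79154908 to 79165240, minus strand) was at 14.4, 12.2 and 14.1 CPM in controls, 11.2, 38.1 and 24.6 CPM with C. albicans and 6.28 and 10.5 CPM with C. tropicalis. C. albicans 1 was below every control, while the other 2 libraries of its group were above them. Gfap, the glial intermediate filament (ENSMUSG00000020932, chromosome 11 from 102887336 to 102900912, minus strand), was at 10.3, 5.004 and 4.14 CPM in controls, 4.67, 17.8 and 8.72 CPM with C. albicans and 2.06 and 3.17 CPM with C. tropicalis. Only the C. tropicalis libraries lay outside the control range together. S100b, a calcium-binding protein of glia, was at 2.33 ± 0.322, 3.302 ± 1.62 and 1.62 ± 0.434 CPM in control, C. albicans and C. tropicalis. The cadherin gene Cdh19 was at 2.100 ± 0.723, 3.35 ± 1.42 and 2.13 ± 1.15 CPM and was the only member with a positive fold change for C. tropicalis (log2 0.023 ± 0.52). As a share of the summed neuronal CPM, the 5 glial genes without Erbb3 came to 15.5% to 17.3% in controls, 14.8% to 20.9% with C. albicans and 17.7% and 18.3% with C. tropicalis.

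Erbb3 (ENSMUSG00000018166, chromosome 10 from 128567523 to 128589652, minus strand) did not share that order. It was at 396, 324 and 307 CPM in controls, 329.8, 199 and 222 CPM with C. albicans and 236 and 148 CPM with C. tropicalis. It was the only member with a negative fold change for C. albicans (log2 -0.45 ± 0.24, adjusted p = 0.3803 with edgeR), and for C. tropicalis both libraries lay below every control (-0.83 ± 0.27, adjusted p = 0.254 with edgeR). C. albicans 2, the highest library for most members, was the second lowest for Erbb3. The 9 markers of colon epithelium (Krt8 leading, none at 0 counts) summed to 16811 to 19312 CPM in controls, 19887 to 24418 CPM with C. albicans and 21279.7 and 24259 CPM with C. tropicalis, above the controls in every colonized library. A few abundant keratin, mucin and carbonic anhydrase genes carry that sum. By gene the list was mixed in direction, with 7 higher and 2 lower with C. albicans (median log2 0.16), 5 higher and 4 lower with C. tropicalis (0.039), and Epcam at 1532 ± 204, 1429 ± 3.87 and 1496 ± 59.7 CPM in control, C. albicans and C. tropicalis. Their part in the Erbb3 values was not tested.

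With C. tropicalis, 30 of the 31 genes had a negative log2 fold change against control, where 52.1% of all tested genes did. None passed edgeR's test, against 0.031% of all tested genes. The median was -0.83, against -0.019 over all tested genes, with -0.84, -0.94 and -0.61 for the neuronal, transmitter and glial genes. At an unadjusted p under 0.05 there were 9 members, all lower, against 8.05% of all tested genes on that side. For 23 members both C. tropicalis libraries were below all 3 controls, against 16.5%. DESeq2 called 0 members, against 1.48% of the genes it tested, and limma-voom 0, against 0.0248%. Leaving out C. tropicalis 1 took the median to -0.43 and leaving out C. tropicalis 2 to -1.11. The comparisons of either species with control share the same 3 controls.

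The largest differences were between the Candida species. All 31 genes were lower with C. tropicalis than with C. albicans, where 46.3% of all tested genes were. The median log2 fold change was -1.45, against 0.038 over all tested genes, with -1.39 for the neuronal, -1.78 for the transmitter and -1.29 for the glial genes. For 29 members, all but Erbb3 and Cdh19, both C. tropicalis libraries lay below all 3 C. albicans libraries, against 22.4% of all tested genes. At an unadjusted p under 0.05 there were 27 members, against 14.4%. None passed after adjustment with edgeR, where 0% of all 16107 tested genes did, and none with limma-voom (0%). The smallest adjusted p with edgeR was 0.0646, for Ret, Phox2a and Foxd3.

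For Ret the log2 fold change between the species was -1.63 ± 0.29 (0.323-fold), for Phox2a -2.13 ± 0.43 (0.228-fold) and for Foxd3 -1.66 ± 0.34 (0.317-fold). Among transmitter genes, Slc18a3 had -1.83 ± 0.42 (adjusted p = 0.0669 with edgeR, as for the values that follow), Nos1 -2.32 ± 0.61 (adjusted p = 0.0763) and Calb2 -0.99 ± 0.28 (adjusted p = 0.0863). Cartpt had the largest fold change of the 31, -3.56 ± 1.05 (adjusted p = 0.0959). Among glial genes Sox10 had -1.56 ± 0.45 (adjusted p = 0.0928) and Gfap -1.99 ± 0.61 (adjusted p = 0.103). The smallest were Gfra3 with -0.35 ± 0.34 and Erbb3 with -0.38 ± 0.27.

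Whether these differences passed depended on the tool and on single libraries. With DESeq2 21 of the 31 members passed, all lower, against 8.68% of the genes it tested on that side. Without a filter on low counts 17 passed, against 4.18% of all genes, and with only these 2 groups in the fit 5 passed, against 5.47%. Leaving out C. albicans 1 gave 17 (8.2% of all genes), leaving out control 1 gave 10 (5.78%) and leaving out control 3 gave 9 (5.62%), while leaving out any of the other 5 libraries gave 0. Foxd3, Gfra1, Nos1, Phox2a and Ret passed in all 6 of these settings, and 9 members (Stmn2, Nefl, Nefm, Gfra2, Gfra3, Tac1, S100b, Erbb3 and Cdh19) in none. These 6 are the settings, of 16 run, in which any member passed, so agreement among them is only a description. With DESeq2 size factors in edgeR 0 members passed, and with a filter of at least 1 CPM in 3 libraries 0. Leaving out C. albicans 2, the library highest for most members, took the median to -1.10.

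**Figure D3:**
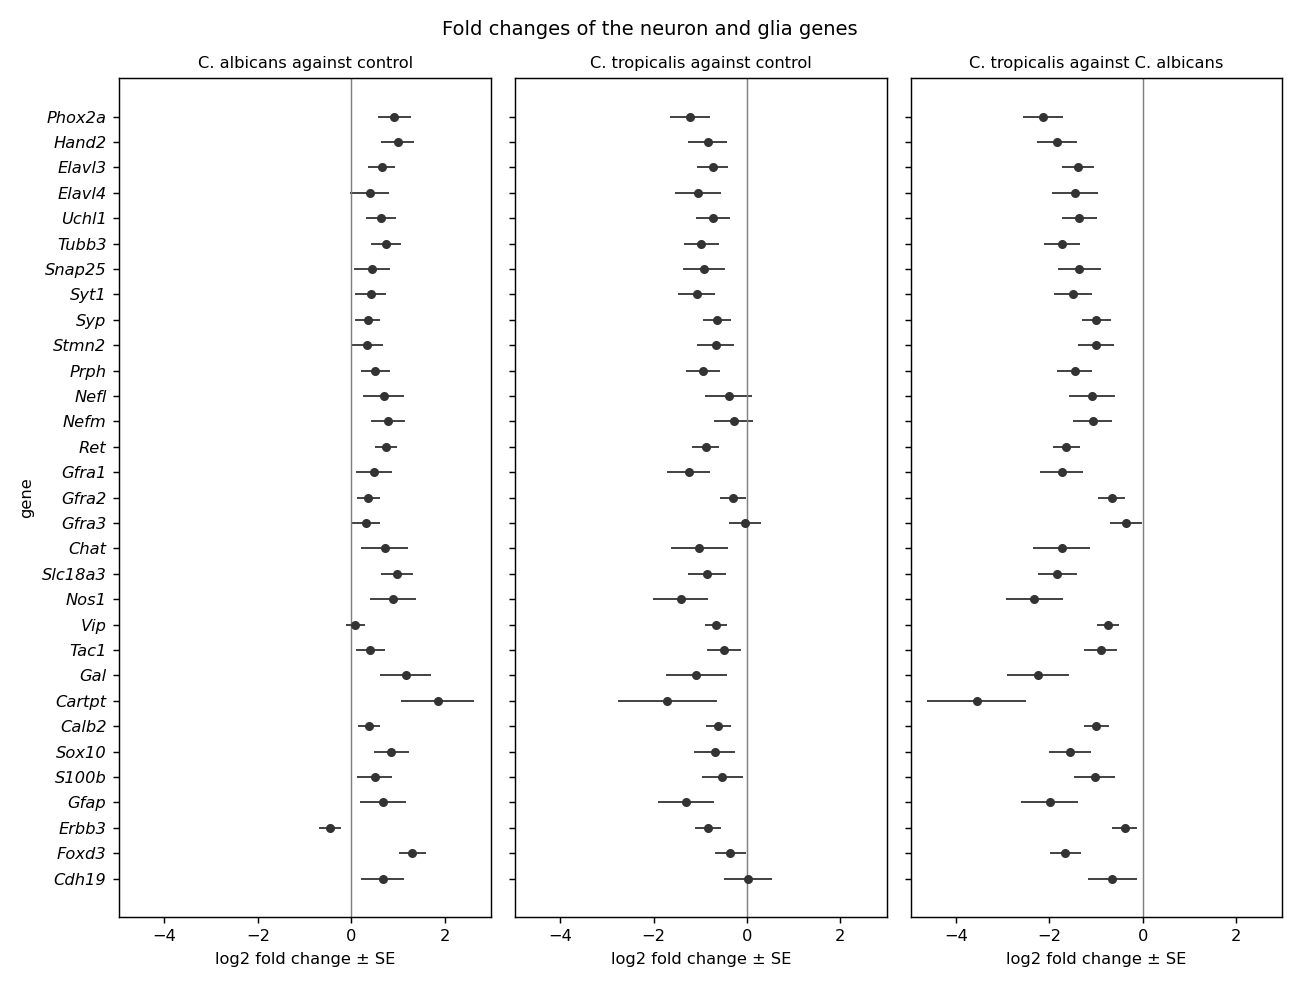
Log2 fold change (point) and standard error (bar) of each of the 31 genes in the 3 comparisons, from edgeR's fit of all 8 libraries. Of the 31 values, 30 are above 0 for C. albicans against control, 30 below 0 for C. tropicalis against control and 31 below 0 between the species.

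Smooth muscle, between whose layers a nerve plexus lies, was high and low in nearly the same libraries. The 15 muscle markers (none at 0 counts) summed to 14176, 11484 and 7021 CPM in controls 1 to 3, 10336, 29818 and 16775 CPM with C. albicans and 4064 and 5146 CPM with C. tropicalis. The summed neuronal CPM was 207, 169.6 and 149 in controls, 178, 385 and 249 with C. albicans and 79.5 and 122 with C. tropicalis. Both sums were highest in C. albicans 2 and lowest in C. tropicalis 1, and their order over the 8 libraries differed only in that C. albicans 1 and control 2 changed places. Actg2, the gut's smooth muscle actin and the most abundant muscle marker per kilobase, stood at 1915 ± 497, 3931 ± 2307 and 702 ± 133 CPM in control, C. albicans and C. tropicalis. All 15 markers had positive fold changes with C. albicans (median log2 0.78) and negative ones with C. tropicalis against control (-1.01) and against C. albicans (-1.85). None passed edgeR's test. Between the species DESeq2 called 14 of the 15 lower (8.68% of the genes it tested), and 15 had groups that did not overlap (22.4%). Against control these counts were 3 (1.48%) and 13 (16.5%) with C. tropicalis, and 0 (2.75%) and 0 (9.82%) with C. albicans.

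Per 1000 CPM of muscle markers, the neuronal genes came to 14.6, 14.8 and 21.2 CPM in controls, 17.3, 12.9 and 14.9 CPM with C. albicans and 19.6 and 23.8 CPM with C. tropicalis. The library richest in neuronal transcripts, C. albicans 2, had the lowest ratio and C. tropicalis 2 the highest. For transmitter genes the ratio was 5.01 to 7.05 in the control and C. albicans libraries, and 7.32 and 8.96 with C. tropicalis. For the 5 glial genes without Erbb3 it was 2.28 to 3.67 in the control and C. albicans libraries, and 3.46 and 4.35 with C. tropicalis. In each of these ratios both C. tropicalis libraries lay above all 3 C. albicans libraries.

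**Figure D4:**
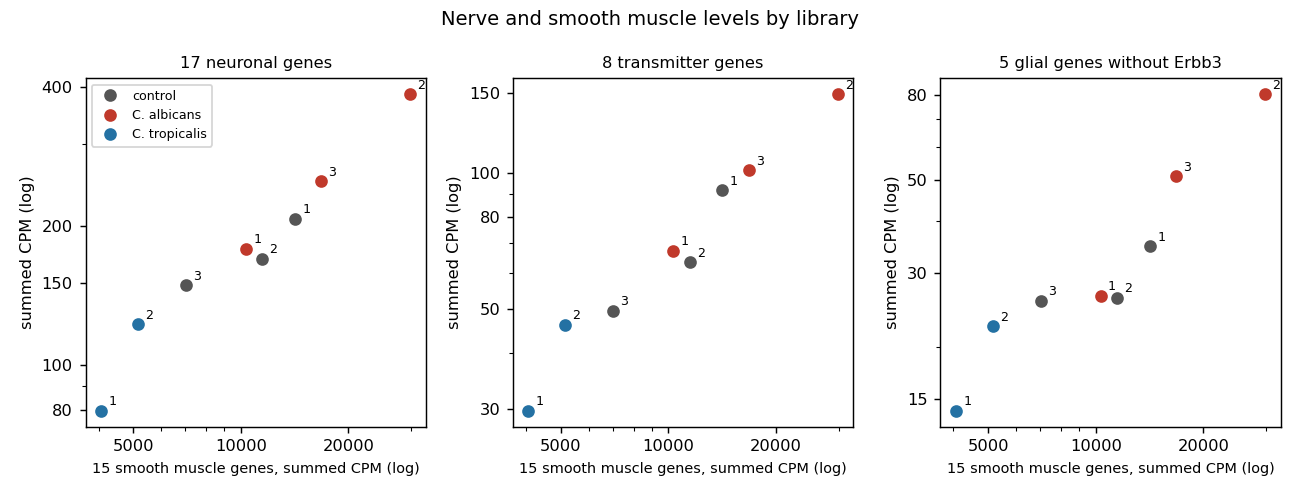
Summed CPM of the neuronal, transmitter and glial (without Erbb3) genes against the summed CPM of 15 smooth muscle markers, both on log axes, with a point for each library numbered by its replicate. In each panel C. tropicalis 1 is lowest and C. albicans 2 highest on both axes.

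With a smooth muscle score (the mean log2 CPM of the muscle markers) as a covariate in the edgeR fit, the members' median log2 fold change was 0.057 for C. albicans, -0.11 for C. tropicalis and -0.14 between the species. No member passed in any comparison, against 0.106%, 0% and 0.0124% of all tested genes. The smallest p belonged to Foxd3 for C. albicans (log2 0.84 ± 0.26, adjusted p = 0.307), Erbb3 for C. tropicalis (-1.08 ± 0.33, adjusted p = 0.281) and Ret between the species (-0.62 ± 0.27, adjusted p = 0.751). Nos1 went from -2.32 to 0.057 ± 0.34 between the species, and Sox10 from -1.56 to -0.18 ± 0.55. The muscle sums of the species do not overlap, so a difference that goes with muscle and a difference between species cannot be told apart in this fit.

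**Figure D5:**
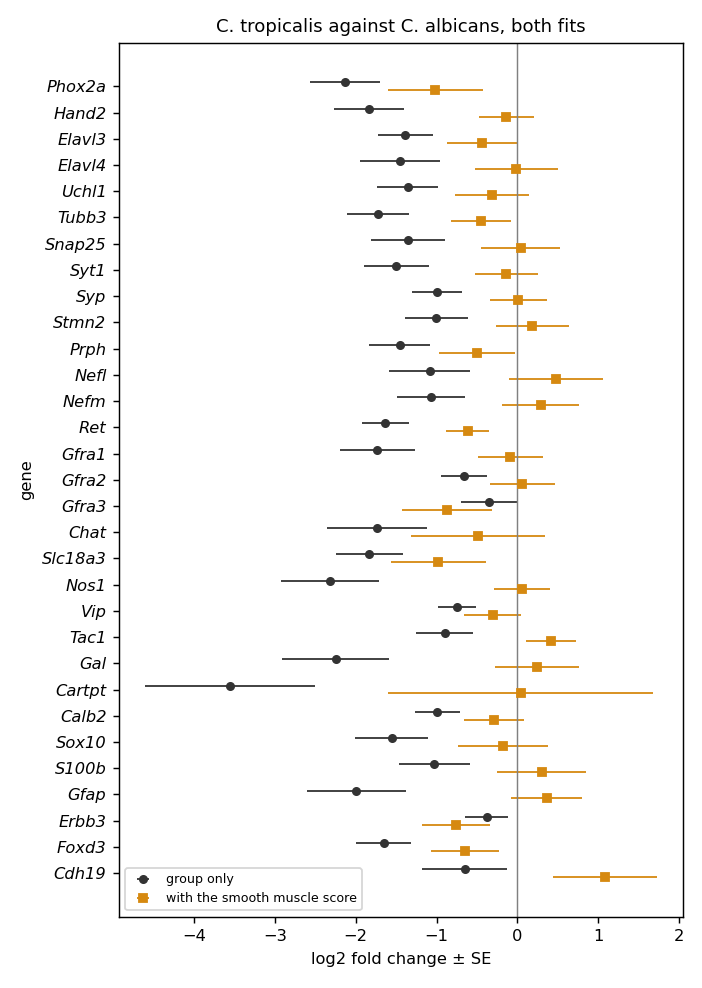
Log2 fold change and standard error of C. tropicalis against C. albicans for each gene, from the fit with group only and from the fit with the smooth muscle score added. The median is -1.45 in the first and -0.14 in the second.

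Markers of other cell types were summed in the same way, and their part in the nerve gene values was not tested. The 4 markers of interstitial cells of Cajal, the pacemaker cells (Ano1 leading, none at 0 counts), summed to 224 to 249 CPM in controls, 213 to 243 CPM with C. albicans and 169.8 and 209.6 CPM with C. tropicalis. That sum is carried by Ano1 (log2 0.22 between the species). The other 3 markers had -1.54 for Kit, -1.74 for Etv1 and -1.48 for Prkg1. For each of these 3 both C. tropicalis libraries were below every control, against 16.5% of all tested genes on that side. The median of the 4 markers between the species was -1.51, where that of the 31 nerve genes was -1.45. The 6 markers of skeletal muscle (Acta1 leading) summed to 12.2 to 35.1, 34.01 to 77.95 and 9.25 and 10.7 CPM, with 1 or 2 of them at 0 counts in each library. The 7 markers of mesothelium and fat (Cidec leading) summed to 23.02 to 64.7, 24.96 to 68.8 and 3.198 and 10.1 CPM, with 2 markers at 0 counts in C. tropicalis 1 and 1 in C. tropicalis 2 and in control 3. Like the summed neuronal CPM, both of these sums were lowest in C. tropicalis 1 and highest in C. albicans 2. By gene, the mesothelium and fat list had 3 higher and 4 lower with C. albicans (median log2 -0.27). All 7 of its genes were lower with C. tropicalis against control (-2.92). Of the 4 skeletal muscle markers tested, 3 were higher and 1 lower with C. albicans (1.27). All 4 were lower with C. tropicalis against control (-0.92). Enteroendocrine cells share vesicle and peptide genes with neurons, and their 13 markers (Pyy leading, none at 0 counts) summed to 497 to 689, 548 to 666 and 458 and 472 CPM. Between the species their median log2 fold change was -0.21, with 4 higher and 9 lower, where 46.3% of all tested genes were lower. For 7 of the 13 both C. tropicalis libraries lay below every C. albicans library, against 22.4% of all tested genes. DESeq2 called 4 lower, against 8.68% of the genes it tested on that side, and 0 passed edgeR's test. Of the tuft cell markers 7 are given here. All 7 were higher with C. albicans (median log2 0.68) and lower with C. tropicalis, both against control (-1.07) and against C. albicans (-1.45). Between the species all 7 had groups that did not overlap, against 22.4% of all tested genes on that side. Against control 0 of the 7 did with C. tropicalis (16.5% of all tested genes) and 1 with C. albicans (9.82%). In edgeR's test 0 of these 7 markers passed. They summed to 16.7 to 74.4 CPM in controls, 64.6 to 81.1 CPM with C. albicans and 16.3 and 22.9 CPM with C. tropicalis, with Il25 at 0 counts in control 3 and C. tropicalis 2. The 8 B cell markers (Cd79a leading, none at 0 counts) summed to 18.1 to 279, 12.9 to 65.9 and 67.3 and 95.5 CPM and were lowest in C. albicans 2, the library richest in nerve transcripts, with a median log2 fold change of 0.95 between the species.

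Further genes of enteric neurons had medians of the same sign. Of 20 other neuronal genes 19 were tested. With C. albicans 15 were higher and 4 lower (median log2 0.40), where 48.2% of all tested genes were higher. With C. tropicalis 7 were higher and 12 lower (-0.61), where 52.1% of all tested genes were lower. None passed the threshold in edgeR's test. The 20 genes summed to 225 to 257 CPM in controls and 275 to 328 CPM with C. albicans. With C. tropicalis the sum was 234.5 and 233.1 CPM, within the control range. L1cam was the largest part of that sum, at 105 ± 6.83, 119 ± 3.40 and 108 ± 7.15 CPM in control, C. albicans and C. tropicalis. Syn1, a synaptic vesicle protein, had the smallest p of them with C. albicans, at 4.21 ± 1.32 CPM in controls and 11.05 ± 4.96 CPM with C. albicans (log2 1.39 ± 0.36, adjusted p = 0.203). Sv2c, a vesicle glycoprotein, had the smallest with C. tropicalis, at 3.42 ± 2.100 CPM in controls and 0.767 ± 0.438 CPM with C. tropicalis (log2 -2.14 ± 0.64, adjusted p = 0.228). Map2 went the other way, at 4.74 ± 0.966, 4.59 ± 0.334 and 7.88 ± 1.29 CPM in control, C. albicans and C. tropicalis. Both C. tropicalis libraries were above every other library for Map2 (log2 0.73 ± 0.25 against control, adjusted p = 0.259 with edgeR). Of 27 other transmitter genes and receptors 21 were tested, 18 higher and 3 lower with C. albicans (median 0.46) and 2 higher and 19 lower with C. tropicalis (-0.68), with 0 passing in edgeR's test. Ache, which breaks down acetylcholine, led with C. albicans (log2 0.58 ± 0.20, adjusted p = 0.264), and Gucy1a1, a subunit of the nitric oxide receptor, with C. tropicalis (-1.34 ± 0.30, adjusted p = 0.164). Of 12 other glial genes 11 were tested, 9 higher and 2 lower with C. albicans (median 0.22) and all 11 lower with C. tropicalis (-0.57), with 0 passing in edgeR's test. The potassium channel gene Kcna1 led with C. albicans (log2 0.95 ± 0.38, adjusted p = 0.294), and Ngfr, the low-affinity neurotrophin receptor, with C. tropicalis (-0.95 ± 0.23, adjusted p = 0.172).

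Of 20 growth factors and receptors of the enteric nervous system 18 were tested, 15 higher and 3 lower with C. albicans (median log2 0.43) and 2 higher and 16 lower with C. tropicalis (-0.62), none past the threshold in edgeR's test. The guidance cue Ntn1 had the smallest p with C. albicans, at 40.1 ± 1.66 CPM in controls and 58.3 ± 3.88 CPM with C. albicans (log2 0.54 ± 0.12, adjusted p = 0.1498). The 4 ligands of the RET co-receptors did not all have the same order of group means. Gdnf stood at 4.61 ± 1.66, 6.42 ± 3.92 and 2.16 ± 0.551 CPM in control, C. albicans and C. tropicalis, the order of means of Ret and Gfra1. Artn, artemin, had that order too, at 4.38 ± 1.17, 6.54 ± 0.839 and 4.01 ± 0.143 CPM. Nrtn, neurturin, was at 33.8 ± 9.67, 91.5 ± 37.5 and 40.5 ± 6.38 CPM, lowest in controls. Pspn, persephin, which binds the fourth co-receptor, was at 0.681 ± 0.0461, 0.394 ± 0.0479 and 0.142 ± 0.0394 CPM, highest in controls. It had the smallest p of the list with C. tropicalis (log2 -2.20 ± 0.51, adjusted p = 0.168 with edgeR). Its C. tropicalis libraries, at 0.114 and 0.170 CPM, were not above what a count of 0 allows there (0.167 and 0.170 CPM). The size of that fold change therefore rests on very few counts. The endothelin gene Edn3 was at 10.9 ± 9.94, 17.6 ± 10.4 and 2.45 ± 1.14 CPM and its receptor gene Ednrb at 6.28 ± 0.882, 9.54 ± 0.452 and 5.63 ± 0.371 CPM.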

How the data were processed

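The authors deposited 1 table of counts, whole numbers of reads per Ensembl gene in 8 libraries, not normalized. Per the submitters' processing notes, TopHat2 2.0.12, HTSeq 6.1 and DESeq 1.18.0 were used with build mm10. The gene models, the counting of strands and any filter were not given in the sources used here. Gene symbols, positions and exon lengths came from GENCODE M21 on the same build, where 233 identifiers, with 0.00317% of the counts, were not found. Counts were tested in R 4.3.3 with edgeR 4.0.16 (TMM, filterByExpr, 1 quasi-likelihood fit of the 3 groups, 5 residual degrees of freedom), and 36529 genes were left out as too low. The scripts were tested on simulated data. SE is the size of the log2 fold change divided by the square root of F. Alternatives used DESeq2 1.42.0, limma-voom (limma 3.58.1), other filters and size factors, fewer groups, the replicate number as a block, a muscle covariate and each library left out. A count of 0 allows up to 3 counts, 0.152 to 0.185 CPM by library, which covers counting error only. The members and lists were chosen with earlier results of these data known. All 31 members are named. Library values are given for the 3 members of each class with the smallest p in any comparison, for its most abundant member per kilobase and for Vip, Cartpt and Gal, chosen after their values were seen. Each related list gives the gene with the smallest p in each colonization comparison, plus all ligands of the RET co-receptors and the endothelin pair, and each marker list its most abundant gene per kilobase, except for tuft cells, where 1 gene is not reported here. Kit, Etv1, Prkg1, Il25, Epcam, Map2 and L1cam were named after their values were seen. Figures used matplotlib 3.10.9.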

Additional observations from a re-analysis of the deposited data

Results flagged for a closer look

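For 3 of the 31 genes, Elavl3, Slc18a3 and Foxd3, every C. albicans library lay above every control and both C. tropicalis libraries below every control, so the colonized groups lay on opposite sides of the shared controls. Of all 16107 tested genes 1.4% had that pattern. The genes were picked here for this separation, so their differences between the species are a description, with no test. The log2 fold change of C. tropicalis against C. albicans was -1.39 for Elavl3, -1.83 for Slc18a3 and -1.66 for Foxd3.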

How the results depend on the processing

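The medians kept their sign under all 16 alternatives run in each comparison. The members passing the threshold were 0 in edgeR's fit of each comparison. For C. albicans against control DESeq2 gave 1, against 2.75% of the genes it tested on that side. Leaving out a control or C. albicans library gave 0 to 2, with 1.58% of all genes where it gave 2. For C. tropicalis against control every alternative gave 0. For C. tropicalis against C. albicans DESeq2 gave 21, against 8.68% of the genes it tested on that side. No filter on low counts gave 17 (4.18% of all genes) and only the 2 groups compared 5 (5.47%). Leaving out a control or C. albicans library gave 0 to 17, with 8.2% of all genes where it gave 17. Leaving out a library gave median log2 fold changes of 0.24 to 0.89 for C. albicans, -1.11 to -0.43 for C. tropicalis and -1.68 to -1.05 between the species. With the muscle covariate the medians were 0.057, -0.11 and -0.14. Signs then turned, on the log2 scale, for C. albicans in Elavl4 -0.16, Snap25 -0.15, Syt1 -0.12, Syp -0.059, Stmn2 -0.21, Gfra1 -0.11, Vip -0.11, Tac1 -0.099, S100b -0.10, Gfap -0.33 and Cdh19 -0.047. For C. tropicalis they turned in Hand2 0.089, Nefl 0.50, Nefm 0.49, Gfra2 0.084, Nos1 0.083, Tac1 0.32, Gal 0.30, Cartpt 0.19, S100b 0.20, Gfap 0.039 and Foxd3 0.19, and between the species in Snap25 0.041, Syp 0.014, Stmn2 0.18, Nefl 0.48, Nefm 0.29, Gfra2 0.062, Nos1 0.057, Tac1 0.42, Gal 0.24, Cartpt 0.039, S100b 0.30, Gfap 0.37 and Cdh19 1.09. For C. tropicalis limma-voom turned Gfra3 0.012 and Cdh19 -0.014. Leaving out a library gave log2 fold changes of -0.087 to 0.58 for Stmn2 and -0.057 to 0.19 for Vip with C. albicans and -0.96 to 0.023 for Nefl, -0.27 to 0.20 for Gfra3 and -0.67 to 0.49 for Cdh19 with C. tropicalis. The cause of these turns was not tested. With the replicate number as a block 0 members passed in each comparison, the medians were 0.59, -0.91 and -1.53, and for C. tropicalis Gfra3 0.038 and Cdh19 -0.15 turned sign. The labels do not say that a number marks a shared animal, litter or cage, so the numbers were not taken to pair the libraries. Same-numbered libraries had correlations of their deviations from the group means of -0.392 to 0.156, and other pairs -0.295 to 0.362. Deviations within a group sum to 0, and those of the 2 C. tropicalis libraries mirror each other. These correlations therefore cannot decide whether libraries are paired. Where a C. tropicalis library was left out, the other was assumed to vary like the remaining groups. Among the 31 members depth limits Chat and Cartpt most, with 174 and 249 counts over the 8 libraries.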
